A study of Homo sapiens with 11 samples.

Results

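The clustered protocadherin genes of the long arm of chromosome 5 were taken as 3 regions of the hg19 build, each bounded by the span of one gene cluster. The alpha cluster ran from 140165000 to 140392000 (227 kb), the beta cluster from 140430000 to 140628000 (198 kb) and the gamma cluster from 140710000 to 140893000 (183 kb), together 608 kb. The bounds were set by gene position and not by any measured value. RefSeq (GRCh38.p14) lists 59 genes there by symbol, of which 53 are protein coding: 15 in alpha, 16 in beta and 22 in gamma. In that table the coding genes span 226.2, 198.0 and 182.5 kb, close to the lengths of the 3 regions. Of 229591 enriched intervals in the 10 deposited lists (chromosomes 1 to 22 and X), 95 touched the clusters.

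The lists came from chromatin immunoprecipitation and sequencing (ChIP-seq) of MDA-MB-231, a human triple-negative breast cancer line. Cells with the mdig gene knocked out (KO), which per the labels' protocols lack the protein, were set against cells with normal mdig (WT), and both came from CRISPR-Cas9 work and were grown with blasticidin. Whether either was a single clone is not given in the sources used here. Antibodies against H3K4me3, H3K36me3, H3K9me3, H4K20me3 and mdig itself (labelled MINA, also called RIOX2) were each used on 1 KO and 1 WT sample. In the clusters the KO lists held 66 intervals and the WT lists 29. The lists also differed in size over the genome. KO and WT held 17825 and 19210 intervals for H3K4me3, 17800 and 17507 for H3K36me3, and 53375 and 45805 for H3K9me3. For H4K20me3 they held 25318 and 8539, and for MINA 7859 and 16353. There are no replicates, so every difference below describes these libraries and none was tested. An interval carries a position only, on a 200-bp grid, and the read depth is unknown.

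Clustered protocadherins are cell-surface adhesion proteins of the cadherin superfamily, known best from the nervous system, where each neuron uses its own combination of them. In the alpha and gamma clusters every first exon has its own promoter and is spliced to constant exons that all genes of the cluster share, and the last genes of each row (the C types) are used more uniformly than the others. Beta genes have no shared constant exons. CTCF and cohesin bring a distant enhancer to the chosen promoter, the promoters that are not chosen carry silent chromatin, and in several cancers, breast cancer among them, whole stretches of these clusters are silenced. H3K9me3 and H4K20me3 mark silent heterochromatin, H3K4me3 marks active promoters and H3K36me3 the bodies of transcribed genes.

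Promoters of genes at the ends of the rows are shown as examples, since each gene of the rows has its own. A promoter is the place at which active or silent marks are known to lie. RefSeq holds promoters (GRCh38.p14, plus strand, 250 bases before to 50 bases after the gene start) for 47 of the 53 coding genes. Capitals mark CGCT on the printed strand, which is the core of a conserved element of many protocadherin promoters. Only these bases were matched and not the whole element, so a stretch in capitals need not belong to it. PCDHA1 opens the alpha row and PCDHAC2 closes it, PCDHB1 and PCDHB2 open the beta row and PCDHGA1 opens the gamma row, which PCDHGC5 closes.
PCDHA1: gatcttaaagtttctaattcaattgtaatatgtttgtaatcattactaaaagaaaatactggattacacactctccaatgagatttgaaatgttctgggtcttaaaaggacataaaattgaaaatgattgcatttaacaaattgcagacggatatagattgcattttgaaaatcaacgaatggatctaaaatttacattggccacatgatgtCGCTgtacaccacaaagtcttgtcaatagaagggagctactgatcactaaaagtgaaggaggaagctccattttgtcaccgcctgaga
PCDHAC2: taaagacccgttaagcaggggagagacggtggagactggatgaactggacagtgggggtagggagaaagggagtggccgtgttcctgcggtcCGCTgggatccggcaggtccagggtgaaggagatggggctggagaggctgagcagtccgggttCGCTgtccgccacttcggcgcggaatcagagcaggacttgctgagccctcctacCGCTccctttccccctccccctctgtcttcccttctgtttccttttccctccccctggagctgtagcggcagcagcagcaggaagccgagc
PCDHB1: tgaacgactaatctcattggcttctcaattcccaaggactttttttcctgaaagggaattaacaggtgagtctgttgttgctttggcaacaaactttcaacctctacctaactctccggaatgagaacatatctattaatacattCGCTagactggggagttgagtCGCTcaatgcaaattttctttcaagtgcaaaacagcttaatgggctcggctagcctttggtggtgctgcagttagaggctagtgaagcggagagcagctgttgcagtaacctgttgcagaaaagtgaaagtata
PCDHB2: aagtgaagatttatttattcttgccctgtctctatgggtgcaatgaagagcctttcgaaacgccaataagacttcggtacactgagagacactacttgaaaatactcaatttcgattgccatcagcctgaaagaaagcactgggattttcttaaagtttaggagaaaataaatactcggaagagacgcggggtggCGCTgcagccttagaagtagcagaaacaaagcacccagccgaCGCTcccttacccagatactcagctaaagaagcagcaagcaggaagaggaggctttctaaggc
PCDHGA1: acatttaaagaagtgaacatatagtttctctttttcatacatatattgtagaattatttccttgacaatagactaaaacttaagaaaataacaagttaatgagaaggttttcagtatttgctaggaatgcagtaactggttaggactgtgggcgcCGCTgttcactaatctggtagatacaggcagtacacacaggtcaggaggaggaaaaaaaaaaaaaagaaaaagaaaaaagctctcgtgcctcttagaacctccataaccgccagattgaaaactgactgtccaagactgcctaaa

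CGCT on the printed strand stood in 46 of the 47 promoters (97.9%), against 54.1% of the 27305 promoters of the whole table. On either strand the shares were 97.9% and 69.4%. In 43 of the 47 (91.5%) a copy began 100 to 30 bases before the gene start, a window chosen after the positions had been seen, against 21.7% of all promoters. The exception without CGCT was PCDHA9, and CGCT in the other 46 does not show that they hold the whole element. An exact match to a core motif of CTCF was found on either strand in 1 of the 47, that of PCDHB9, and in 2.49% of all promoters. Sites that differ from that motif were not counted, so these shares do not show where CTCF binds. The 4 C-type promoters held 15 to 27 CG pairs with a median of 20.5, while the other 43 held 2 to 16 with a median of 7. The median was 14 in the whole table, which holds no promoter of PCDHGC5, also a C type. The lists are on hg19 and the gene table on another build, so no interval was assigned to a single gene.

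H4K20me3 was listed at the clusters in KO cells only. The KO list held 20 intervals over 54.4 kb, 8.95% of the length of the clusters, and the WT list held none. All 3 clusters took part. KO covered 21.8 kb in alpha with 9 intervals, 18.2 kb in beta with 6 and 14.4 kb in gamma with 5, against 0 kb in WT in each. With 1 kb added to both lengths, all 3 were more than 2-fold higher in KO, which was also the case for 40.9% of 13578 bins of 200 kb across the genome and for 65.3% of the 98 bins within 10 Mb, those of the clusters included. By as much 12% and 2.04% of those bins were lower in KO, and no cluster was. The 3 clusters had a median log2 ratio (KO over WT) of 4.26, beside 0 over all bins and 1.85 over the bins within 10 Mb. With WT at 0 kb in each cluster, the 4.26 is set by the added 1 kb and is no measure of size.

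The H4K20me3 intervals were short. Their widths ran from 1.2 to 4.2 kb with a median of 2.6 kb, while KO intervals of the whole genome had a median of 4 kb. In alpha 6 of the 9 lay in the first of 3 equal parts. The widest, of 4.2 kb, began at the first base of that cluster (140165001 to 140169200), followed by one of 3.4 kb from 140305601 to 140309000 and by a pair of 2.6 kb, from 140180601 to 140183200 and from 140186601 to 140189200. In beta the intervals ran from 140515401 to 140517400, 140534601 to 140538000, 140593401 to 140596000, 140602801 to 140606400, 140619601 to 140622800 and 140624001 to 140627400. In gamma all 5 lay within 36.2 kb of its start, from 140710001 to 140714000, 140717801 to 140720400, 140730001 to 140732600, 140739401 to 140742000 and 140743601 to 140746200. None of the 20 had a WT interval over it, and the same holds for 80.4% of KO H4K20me3 intervals in the genome. Of WT H4K20me3 intervals in the genome 44.6% had no KO interval over them. The nearest WT intervals lay 462 kb before the alpha cluster (139698601 to 139703000) and 741.4 kb after the gamma cluster (141634401 to 141636800). WT held no H4K20me3 in 69.4% of the 200-kb bins of the genome and in 80.6% of those within 10 Mb. Among bins with H4K20me3 in KO these shares were 60.1% and 76.7%.

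H3K9me3, by contrast, was listed in both genotypes and lay partly at the same places. KO held 28 intervals over 81.4 kb (13.4% of the clusters) and WT 16 intervals over 53 kb (8.72%), a ratio of 1.54. The ratio was 1.20 over the genome, 1.45 on chromosome 5 as a whole and 0.899 in the 10 Mb on either side. Both lists shared 39.8 kb, 41.6 kb were found in KO only and 13.2 kb in WT only. In alpha KO covered 21 kb and WT 16.2 kb, in beta KO covered 40.8 kb and WT 25.8 kb, and in gamma KO covered 19.6 kb and WT 11 kb. KO was thus longer in each cluster, but none reached 2-fold in either direction, while 15.3% of genome bins were higher by 2-fold or more and 35.3% were lower. Within 10 Mb these shares were 19.4% and 15.3%. The median log2 ratio of the clusters was 0.64, beside -0.32 over all bins and 0 over those within 10 Mb.

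Of the 28 KO intervals of H3K9me3, 14 had no WT interval over them, against 47.2% of KO intervals in the genome. The other 14 (50%, exact 95% confidence interval 30.6% to 69.4%, which here and below covers counting error only) did. Among the 16 WT intervals 3 had no KO interval over them, against 31.4% in the genome. The 3 WT-only intervals lay one in each cluster, from 140207801 to 140210000 in alpha, 140479601 to 140481800 in beta and 140810201 to 140812600 in gamma. The last of them, of 2.4 kb, was the widest WT-only one. Among intervals found in KO only, the widest (3.8 kb) stood in beta at 140579201 to 140583000, over H3K4me3 of both genotypes.

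Along the clusters H3K9me3 was uneven. In alpha the first of 3 equal parts held 15.6 kb in KO and 14 kb in WT, the middle part 5.4 kb in KO and 2.2 kb in WT, and the last held none in either. In beta most of it lay toward the end, with 33 kb in KO and 21.8 kb in WT in the last part, 5.6 kb in KO and 1.8 kb in WT in the middle part and 2.2 kb in each genotype in the first. All 8 KO intervals of gamma lay within 46.2 kb of its start, and WT held 3 of its 4 there, with the other one, of 2.4 kb, in the middle part, where KO had none. In alpha the 3 widest KO intervals were 3.8 kb (140165601 to 140169400), 3.2 kb (140305601 to 140308800) and 2.8 kb (140186401 to 140189200). The first and second had WT partners, from 140165601 to 140169000 and from 140305601 to 140307800. Other WT intervals of alpha with a KO partner ran from 140174001 to 140177800, 140180801 to 140183000 and 140201401 to 140203800. In beta the 3 widest KO intervals were 40.6 kb (140623601 to 140664200), 9.4 kb (140613401 to 140622800) and 4.4 kb (140597201 to 140601600). That of 40.6 kb crossed the end of the beta cluster, so 4.4 kb of it counted there. The WT intervals of beta with a KO partner ran from 140536201 to 140538000, 140595801 to 140599200, 140602801 to 140606600, 140612001 to 140617600 and 140619001 to 140631000. The last of these, the widest of WT in the clusters with 12 kb, crossed the same bound. In gamma the widest KO intervals were a pair of 3 kb (140723201 to 140726200 and 140743201 to 140746200) and one of 2.8 kb (140753401 to 140756200). WT partners in gamma ran from 140718401 to 140720400, 140743001 to 140746400 and 140749201 to 140752400.

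**Figure D1:**
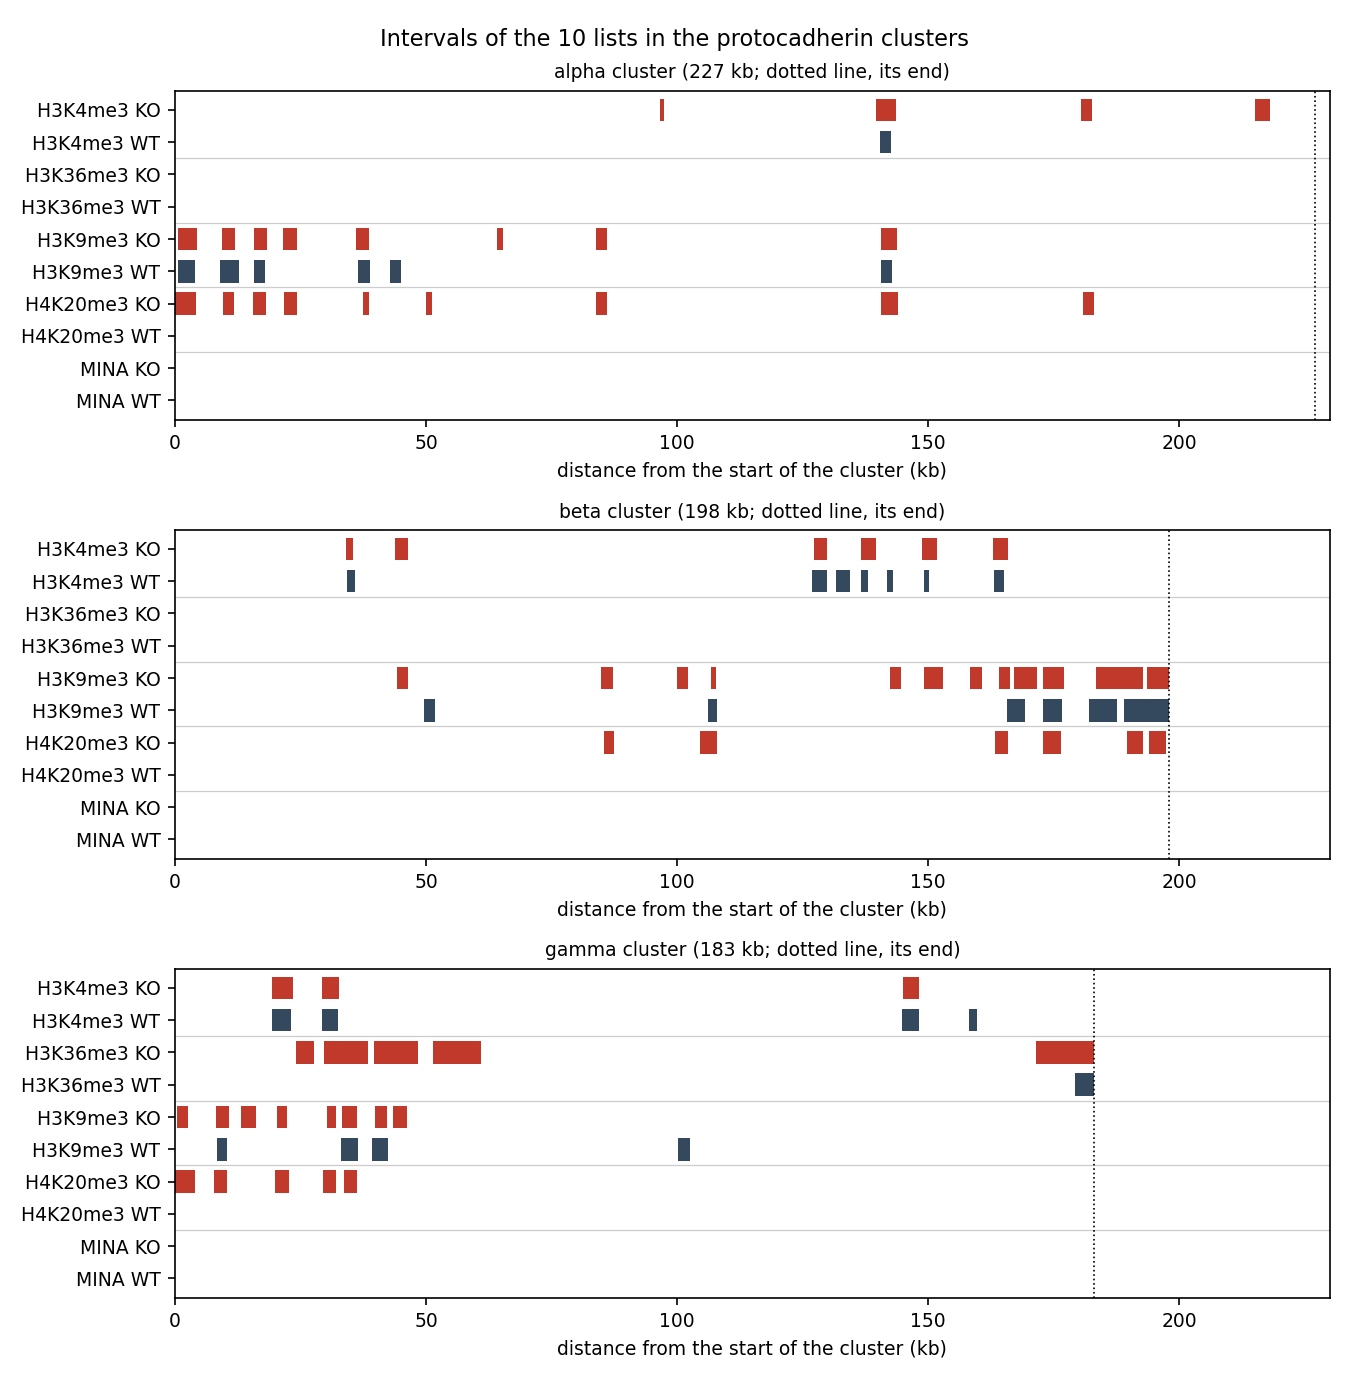
Each bar is 1 enriched interval of a list, drawn from the start of its cluster in kb and ended at the bounds of the cluster, with KO in red above WT in dark blue for each antibody. H4K20me3 has 20 intervals in KO and none in WT, 18 of them at an H3K9me3 interval of KO, and 4 H3K36me3 intervals near the start of gamma have no WT partner.

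The KO intervals of H4K20me3 lay where H3K9me3 lay. Of the 20, 18 touched a KO interval of H3K9me3 (90%, exact 95% interval 68.3% to 98.8%). The shares were 68.5% over the genome and 33.3% in the 10 Mb on either side of the clusters. H3K9me3 of KO covered 13.4% of the clusters and 2.15% of those sides, and its part in the overlap was not tested. By length 78.7% of the H4K20me3 was on KO H3K9me3, against 60.7% over the genome. Where they met, the centres of the pairs lay a median of 0.4 kb apart. The 2 without H3K9me3 were in alpha, from 140215001 to 140216200 and from 140345801 to 140348000. In WT cells 12 of the 20 places (60%, exact 95% interval 36.1% to 80.9%) carried H3K9me3, against 62.5% over the genome. Seen from the other side, 18 of the 28 KO intervals of H3K9me3 touched H4K20me3 (64.3%, 44.1% to 81.4%), against 25.8% over the genome and 46.7% within 10 Mb.

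H3K4me3, the mark of active promoters, was listed at all 3 clusters in both genotypes. KO held 13 intervals over 36 kb (5.92% of the clusters) and WT 12 intervals over 27 kb (4.44%), a ratio of 1.33, while the ratio over the genome was 0.844. The shared length was 20.4 kb, with 15.6 kb in KO only and 6.6 kb in WT only. Alpha held 9.8 kb in KO and 2.2 kb in WT, beta 15.6 kb in KO and 13 kb in WT, and gamma 10.6 kb in KO and 11.8 kb in WT. Alpha was the 1 cluster past 2-fold, with a log2 ratio of 1.75 after adding 1 kb, and 2.25% of genome bins and 4.08% of bins within 10 Mb were higher by as much. No cluster was lower by 2-fold, as 6.23% of genome bins and 1.02% of bins within 10 Mb were. The clusters' median log2 ratio was 0.25, beside 0 over all bins.

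Most H3K4me3 intervals of the clusters had a partner in the other genotype. Among the 13 in KO 9 had a WT partner, and the 4 that had none (5.85% of KO intervals in the genome have no WT partner) lay in alpha from 140261601 to 140262400, 140345401 to 140347600 and 140380201 to 140383000, and in beta from 140473801 to 140476400. The alpha interval with a partner ran from 140304601 to 140308600 in KO and from 140305401 to 140307600 in WT. Of the 12 WT intervals 3 were not found in KO, against 14.9% in the genome. They lay in beta from 140561601 to 140564400 and 140571801 to 140573000, and in gamma from 140868201 to 140869800. Within beta the other KO intervals ran from 140464001 to 140465400, 140557201 to 140559800, 140566601 to 140569600, 140578801 to 140581800 and 140593001 to 140596000. The widest WT intervals of beta were 3 kb (140556801 to 140559800) and 2.8 kb, followed by 2 kb (140593201 to 140595200).

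In gamma the H3K4me3 lists were nearly the same. KO intervals ran from 140729401 to 140733400, 140739201 to 140742600 and 140855001 to 140858200, and the WT partners from 140729401 to 140733000, 140739201 to 140742400 and 140854801 to 140858200. Of the 9 pairs in the 3 clusters 6 were wider in KO and 3 narrower. All intervals were short for this mark, with medians of 3 kb in KO and 2.1 kb in WT, where the genome had 5.2 kb in KO and 5.4 kb in WT. Intervals of at least 2 kb alone gave 33.8 kb in KO and 20.2 kb in WT, while joining intervals within 5 kb gave 36 kb in KO and 34.8 kb in WT, so the difference in length depended on how neighbours were joined.

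**Figure D2:**
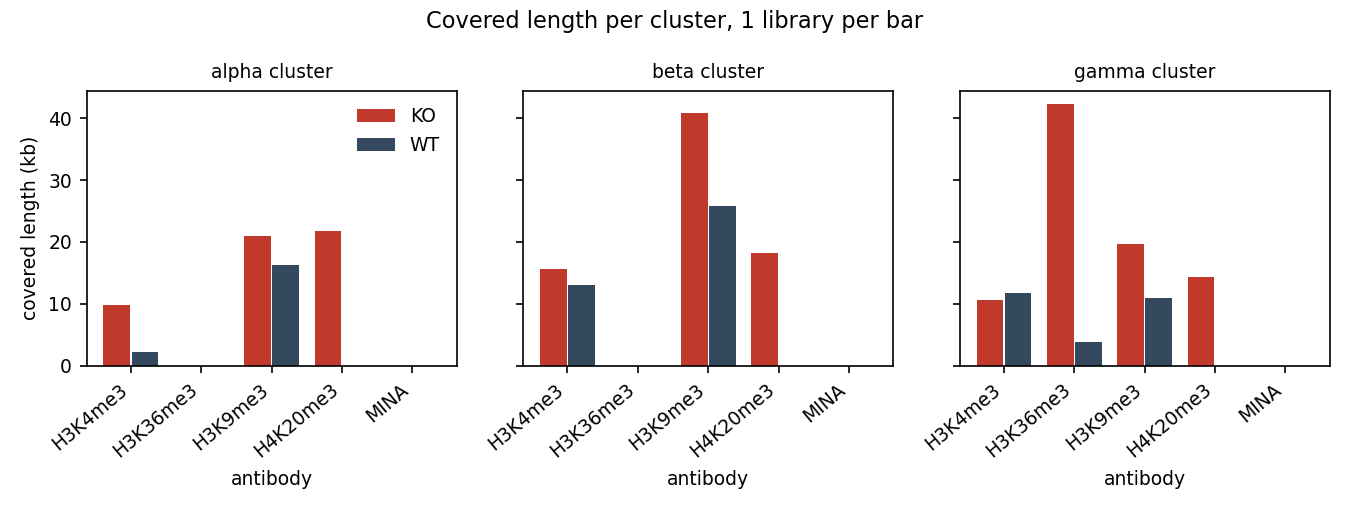
Covered length in kb per cluster and antibody, KO in red to the left of WT in dark blue, 1 library per bar and no error bars. H4K20me3 stands at 21.8, 18.2 and 14.4 kb in KO with no WT bar, and H3K36me3 in gamma at 42.4 kb in KO against 3.8 kb in WT.

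At several places H3K4me3 intervals coincided with the silent marks. In KO 6 of the 13 H3K4me3 intervals touched H3K9me3 (46.2%, exact 95% interval 19.2% to 74.9%). The shares were 5.57% over the genome and 1.48% in the 10 Mb on either side of the clusters. H3K9me3 of KO covered 13.4% of the clusters and 2.15% of those sides, and its part in the overlap was not tested. With WT H3K9me3, 1 of the 12 WT H3K4me3 intervals overlapped (8.33%, 0.211% to 38.5%), against 5.88% over the genome. H4K20me3 was touched by 5 of the 13 in KO (38.5%, 13.9% to 68.4%), against 25.1% over the genome and 28.1% within 10 Mb. Both of these shares lie inside that interval. WT had no H4K20me3 interval in the clusters to touch. Overlap between lists of separate libraries does not show that both marks sat on one nucleosome or in one cell, and a site marked in fewer cells cannot be told apart from one marked less in every cell.

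Joining overlapping intervals of all 10 lists gave 40 sites in the clusters: 13 in alpha, 15 in beta and 12 in gamma. Of these, 20 carried an interval in both genotypes, 15 in KO only and 5 in WT only. At least 2 antibodies had an interval at 20 sites in KO and at 3 sites in WT, and at least 3 antibodies at 4 sites in KO and at none in WT. In KO 12 sites held H3K9me3 with H4K20me3, 6 held H3K4me3 alone and 5 held no interval. In WT 15 sites held no interval, 12 held H3K9me3 alone and 9 held H3K4me3 alone. The absence of H4K20me3 from the WT list enters all of these counts. Of the 20 KO sites, 12 held H3K9me3 with H4K20me3 only and 1 held H3K4me3 with H4K20me3 only. All 4 sites with at least 3 antibodies in KO held H4K20me3. Sites were not joined outside the clusters, so the counts have no genome share beside them. In bins of 200 kb, which are wider than the sites, KO held H3K4me3, H3K9me3 and H4K20me3 together in 27.0% over the genome. Within 10 Mb the share was 40.8%.

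The 4 sites with at least 3 antibodies in KO were in alpha from 140304601 to 140309000, in beta from 140593001 to 140601600, and in gamma from 140729401 to 140733400 and from 140739201 to 140748400. All 4 held H3K4me3, H3K9me3 and H4K20me3 in KO, and the last also held H3K36me3. In WT the sites of alpha and beta and the last of gamma held H3K4me3 and H3K9me3, and the other one H3K4me3 alone. A site can join intervals that do not touch each other, as the WT intervals of the beta site and of the last gamma site did.

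**Figure D3:**
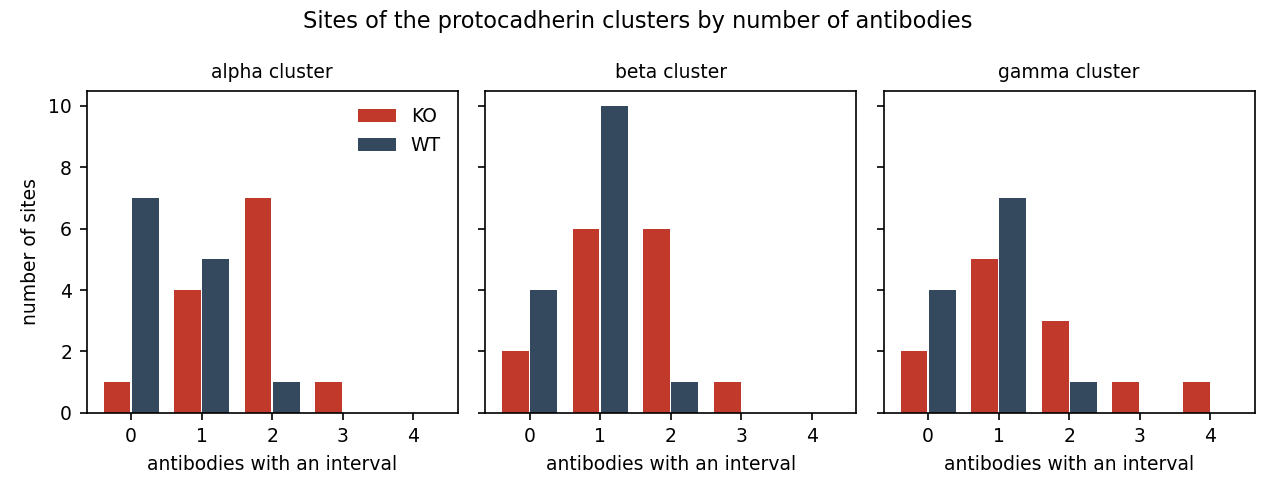
Number of sites (overlapping intervals of all lists joined) by how many of the 5 antibodies had an interval there, KO in red to the left of WT in dark blue. Sites with 2 or more antibodies number 8, 7 and 5 in KO and 1 in each cluster in WT. WT has no H4K20me3 interval in the clusters, which enters these numbers.

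H3K36me3 separated gamma from the other clusters. Neither genotype had an interval in alpha or beta, as in 54.7% of genome bins. In gamma KO held 5 intervals over 42.4 kb (23.2% of that cluster) and WT 1 interval over 3.8 kb (2.08%), a log2 ratio of 3.18 after adding 1 kb. This was the 1 cluster of 3 past 2-fold, beside 4.12% of genome bins and 9.18% of bins within 10 Mb that were higher in KO by as much. By contrast 4.41% of genome bins and 0% of bins within 10 Mb were lower. These shares are of all bins, and the 54.7% without H3K36me3 in either genotype (35.7% within 10 Mb) could not be past 2-fold. Among bins that carry the mark the shares are thus larger. Over the genome the covered length was alike in KO and WT (ratio 1.00), and within 10 Mb the ratio was 1.13.

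Of the KO intervals 4 had no WT partner and stood side by side near the start of gamma, from 140734001 to 140737600, 140739601 to 140748400, 140749601 to 140758400 and 140761401 to 140771000. They were 3.6, 8.8, 8.8 and 9.6 kb wide and covered 30.8 kb, all in the first of 3 equal parts of the cluster. KO intervals without a WT partner made up 14.5% of the list in the genome, and so did WT intervals without a KO partner (14.5%). Of these 4, the interval from 140739601 touched H3K4me3, H3K9me3 and H4K20me3 of KO, that from 140749601 touched H3K9me3, and the others touched none. The remaining KO interval, of 90.2 kb from 140881401 to 140971600, entered the far end of gamma over 11.6 kb. Its WT partner, of 81.4 kb from 140889201 to 140970600, entered it over 3.8 kb, and DIAPH1, a formin that builds actin filaments, is the next coding gene after gamma in the order of the RefSeq table. When each cluster was widened by 20 kb, which took in more of these intervals and those of the gap before gamma (5.8 kb in KO and 5 kb in WT), the lengths were 68.2 kb in KO and 28.8 kb in WT (log2 ratio 1.22).

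The MINA antibody had no interval in any of the clusters in either genotype. For this antibody KO cells are the control, and its KO list still held 7859 intervals in the genome, against 16353 in WT, with 0.298 times the WT length. Of these, 16.9% in KO and 61.2% in WT had no interval of the other genotype over them. Neither genotype had a MINA interval in 54.2% of all genome bins, and for 22.5% of the bins with H3K4me3 in both genotypes (16.7% within 10 Mb). Nearest to alpha were MINA intervals 74 kb before it in KO and 73.8 kb in WT. Those nearest to beta and gamma lay in the gap between these clusters, from 140698601 to 140700800 in KO and to 140701200 in WT. That is 9.2 kb before gamma in KO and 8.8 kb in WT. With this antibody 26.5% of genome bins were lower in KO by 2-fold or more and 3.6% higher, and no cluster was either. Within 10 Mb these shares were 21.4% and 7.14%.

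Of all places in the clusters and gaps, that of the MINA intervals between beta and gamma was the one with intervals of all 5 antibodies in KO. It had H3K4me3 from 140697201 to 140702600 in KO and to 140702200 in WT, H3K36me3 and H3K9me3 in both genotypes, and H4K20me3 from 140696401 to 140701400 in KO. The RefSeq order places 2 coding genes between beta and gamma, SLC25A2, a mitochondrial carrier of ornithine, and TAF7, a subunit of the general transcription factor TFIID. Neither was assigned to an interval.

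The gaps between the clusters and the surrounding chromosome differed from the clusters. In the gap of 82 kb between beta and gamma H3K9me3 covered 58 kb in KO and 45 kb in WT, 70.7% and 54.9% of its length, and H4K20me3 covered 33.8 kb in KO and 0 kb in WT. The gap of 38 kb between alpha and beta, where RefSeq lists no other coding gene, held 1 interval in all, H3K4me3 of KO from 140419201 to 140421000. Within 10 Mb on either side H3K9me3 covered 2.15% of the length in KO and 2.40% in WT, against 13.4% and 8.72% in the clusters. H3K36me3 covered 22.1% in KO and 19.5% in WT there, against 6.97% and 0.625% in the clusters. H3K4me3 covered 5.62% in KO and 5.56% in WT, close to the clusters' 5.92% and 4.44%.

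For H4K20me3 the difference between the genotypes reached well beyond the clusters. In the 10 Mb before alpha KO held 507 kb and WT 25.2 kb, in the 10 Mb after gamma KO held 465.2 kb and WT 130.2 kb, and on chromosome 5 as a whole the lengths were 10.6 Mb and 2.95 Mb, 3.58 times the WT length. Over the genome KO covered 2.23 times the WT length. The part that a difference in depth or enrichment between these libraries has in this was not tested, since neither is given in the sources used here.

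**Figure D4:**
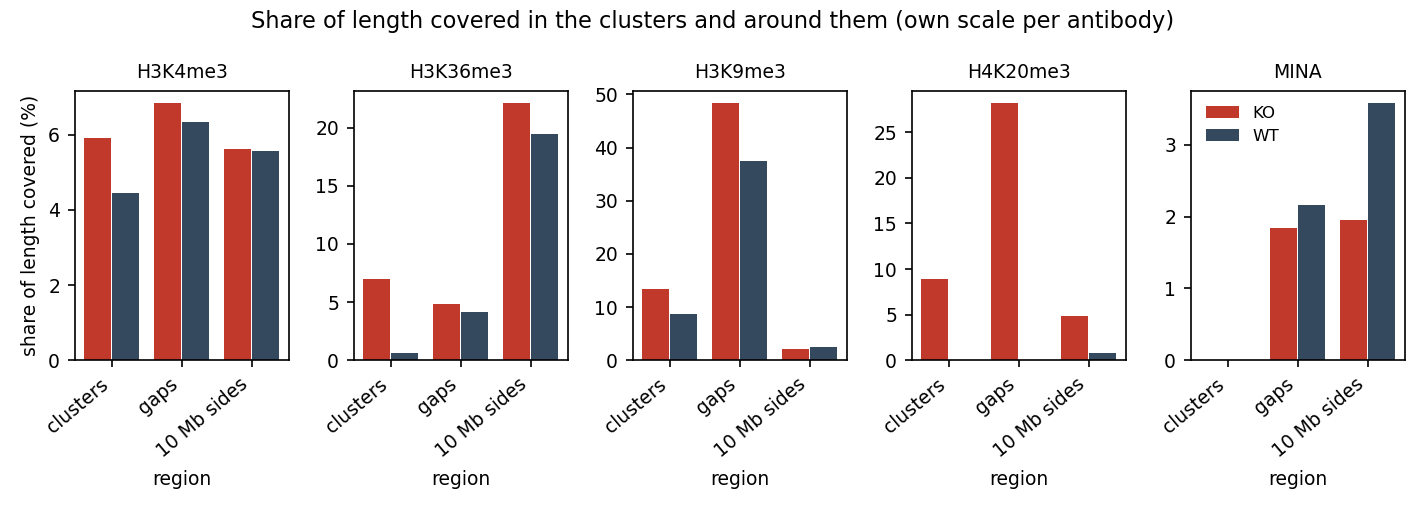
Share of the length covered (%) in the 3 clusters, in the gaps between them and within 10 Mb on either side, KO in red to the left of WT in dark blue, with a scale of its own for each antibody. H3K9me3 covers 13.4% of the clusters in KO and 8.72% in WT, against 2.15% and 2.40% within 10 Mb, and MINA is absent from the clusters in both genotypes.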

How the data were processed

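The deposited file holds 1 list of enriched intervals for each of 10 ChIP-seq libraries and 1 merged list, which was not used. Per the submitters' processing notes reads were aligned with BWA and intervals called with SICER 1.1 on hg19. Their settings, any scaling and whether the input entered the calling are stated in none of the labels. More reads or better enrichment give more and wider intervals, which a ratio of lengths does not correct for. The input library, which the labels give no genotype, was not analysed here.

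Intervals were cut to the clusters and their lengths summed with scipy 1.17.1 and numpy 2.4.6 under Python 3.11.15, and figures were drawn with matplotlib 3.10.9. An interval counted as found in another list when at least 1 bp overlapped. Log2 ratios had 1 kb added to both lengths. The background was all bins of 200 kb with an interval in any list. For each antibody it thus holds bins without that antibody in either genotype, which cannot be past 2-fold. Shares of intervals have exact (Clopper-Pearson) 95% intervals. The bin ratios were computed on simulated lists of 3000 bins, where 200 of 200 changed bins came back with 0 false calls. Those lists had no noise and no bin left empty in 1 genotype, so they check the computation only. With 1 library per antibody and genotype no test was run. Intervals were named where a list held at most 6 in a cluster, otherwise the 3 widest were, together with the widest found in 1 genotype only. The WT-only H3K4me3 interval from 140571801, the KO H4K20me3 intervals without H3K9me3, the joined sites and the gap intervals were named after their positions were seen. Proteins, which were to be shown, were not used here. The clusters, motifs and rules were chosen with earlier results of these data known. Coordinates are 1-based on hg19, and sequences are from RefSeq (GRCh38.p14), matched by symbol.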

Additional observations from a re-analysis of the deposited data

How the results depend on the processing

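Of 35 recomputed values of the KO to WT log2 ratio over the 3 clusters together, 25 stayed within an exact 95% interval that takes the 200-bp windows as counts, and 10 moved. Windows of the same enriched interval are not independent, so that 95% interval measures no spread between libraries. Staying within it does not show that a ratio is stable. No ratio past 2-fold changed its direction. Part of this was fixed in advance. With MINA at 0 kb in both, merging, a minimum width, midpoints, a larger constant or counting could only give 0. With H4K20me3 at 0 kb in WT, the same settings could not reverse its direction. H3K36me3 had a log2 ratio of 3.18, and 1.22 with the clusters widened by 20 kb, 4.99 with whole intervals taken by their midpoint (30.8 kb in KO and 0 kb in WT), 2.43 with 5 kb added to both lengths and 1.58 by number of intervals. H4K20me3, at 0 kb in WT, had 5.79 with 1 kb added, 6.11 with intervals within 5 kb merged, 6.04 with the clusters widened, 3.57 with 5 kb added, 4.39 by number of intervals and 4.64 relative to the genome ratio. These values follow from the added constant and are no measure of size. MINA, at 0 kb in both, moved to 1.74 relative to the genome ratio by construction. H3K4me3 ran from 0.05 with intervals within 5 kb merged to 0.72 with intervals of at least 2 kb, and H3K9me3 from 0.35 relative to the genome ratio to 0.77 by number. All of these counted as having stayed, although merging left H3K4me3 at 36 kb in KO and 34.8 kb in WT. The cause was not tested where construction does not show it. The share of genome bins past 2-fold in either direction moved with bin size, for H4K20me3 from 43.5% of bins of 100 kb to 63.9% of bins of 500 kb, beside 52.9% of bins of 200 kb. No paired analysis was possible because each antibody has 1 KO and 1 WT library. The unknown depth and the absence of heights limit every value.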
